A study of Mus musculus with 6 samples.

Results

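Of the 23420 mouse genes in the count table, 79 encode the matrix metalloproteases (Mmp), the ADAM and ADAMTS metalloproteases and the tissue inhibitors of metalloproteases (Timp). They were chosen by symbol alone: Mmp, Timp, Adam or Adamts followed by a number and, in some genes, a letter. The set holds 23 Mmp, 33 Adam, 19 Adamts and 4 Timp genes. The rule reads the symbol and no measured value, but the members and lists were chosen with earlier results of these data known.

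Matrix metalloproteases are zinc-dependent proteases that cut collagens, laminins and other proteins of the extracellular matrix, and most are secreted as inactive precursors, while the membrane-type enzymes stay at the cell surface. ADAM proteases are membrane proteins, several of which release the outer parts of receptors, ligands and adhesion molecules from the cell, and some of which have no protease activity. ADAMTS proteases are secreted and bind the matrix, where several cut the large proteoglycans versican and aggrecan. The Timp proteins bind and block the active enzymes. In endothelial cells these enzymes act on the basement membrane during vessel growth and on junction and receptor proteins.

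The cells are eEnd2, a line of endothelial cells from mouse embryos. They were stably transfected with human Integrin-β1A carrying GFP in its extracellular part, either as the wildtype protein (β1-WT-GFP) or with the cytoplasmic lysine K794 exchanged for glutamine (β1-K794Q-GFP), a change that mimics an acetylated lysine. Both chimeras were driven by a short human β-actin promoter, and the endogenous mouse integrins were present in both groups. The cells were sorted for GFP and received no treatment, and RNA of 3 cultures of each group (A, B and C) was sequenced after removal of ribosomal RNA. The labels speak of populations with low and with high GFP, and do not say which of them a culture came from. The cultures of a group came from sorted cells of the same transfection, so that the substitution and the transfection and sort cannot be told apart. In order of the letters, the libraries summed to 10203916, 11197729 and 11071680 counts for β1-K794Q-GFP and to 10918600, 9589826 and 15287191 counts for β1-WT-GFP.

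Values are normalized counts (CPM, counts per 1000000 after TMM scaling), always listed by culture letter. At these depths 3 counts, taken as the floor, correspond to between 0.209 and 0.300 CPM, and this limit covers counting error only. Genes were compared with edgeR's quasi-likelihood F-test, two-sided, over all 11608 genes that passed its filter on low counts, and differential expression means a change of 2-fold or more together with an unadjusted p of at most 0.05, which are the study's thresholds. A log2 fold change is that of β1-K794Q-GFP over β1-WT-GFP cells, with its standard error (SE). The adjusted p values are those of Benjamini-Hochberg over the 11608 genes. For a single gene, an exact permutation test of 3 cultures against 3 can give no p below 0.1, the value it gave for each of the 8 differentially expressed members.

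Within each group some cultures stood apart, and this touched the proteases. Among the 30 members that passed the filter, 10 were at least 2-fold above or below both other β1-K794Q-GFP cultures in culture B, a share of 33.3%, against 12.8% of all tested genes. In β1-WT-GFP culture C the same held for 9 members (30.0%), against 19.3% of all tested genes. It held for 0 members in either of the other β1-WT-GFP cultures, for 2 (6.67%) in β1-K794Q-GFP culture A and for 5 (16.7%) in β1-K794Q-GFP culture C, against 2.25% and 4.51% of all tested genes. Compared with each other, A and B of β1-WT-GFP were 2-fold apart in 0 tested members and in 0.560% of all tested genes. Several results below rest on culture B of β1-K794Q-GFP or culture C of β1-WT-GFP. For many of these, the value without that culture or the range with 1 culture left out is given.

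**Figure D1:**
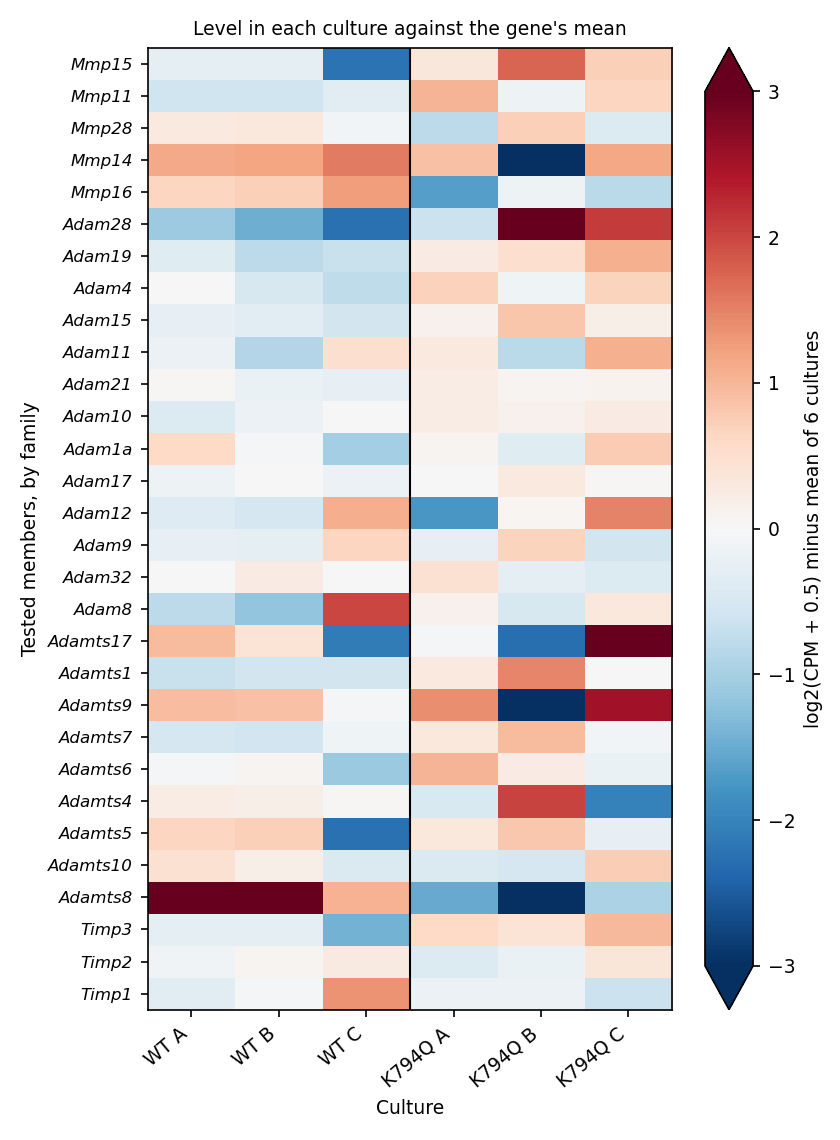
Colour map of log2(CPM + 0.5) of the 30 tested members in each culture, minus the mean of the gene over the 6 cultures; red is above and blue below the mean, and the scale ends at 3 on each side. Columns WT A and WT B are close to each other, while Mmp14 and Adamts9 are dark blue in K794Q B and Adamts5 and Mmp15 are blue in WT C.

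The cells carried endothelial markers. All 14 endothelial genes examined were tested, none was differentially expressed by edgeR, and their summed level was 7530, 14447 and 8473 CPM in β1-K794Q-GFP cultures and 9395, 10330 and 9328 CPM in β1-WT-GFP cultures. Vwf was between 0.262 and 2.41 CPM in all 6 cultures. Of 9 fibroblast or mesenchymal genes, Dcn, Lum and Thy1 had no count, and the summed level was 3.66, 3.75 and 2.58 CPM in β1-K794Q-GFP and 184, 195 and 84.3 CPM in β1-WT-GFP cells. Most of this was Prrx1, a mesenchymal transcription factor, at 183, 194 and 56.5 CPM in β1-WT-GFP and at most 0.0987 CPM in β1-K794Q-GFP cells, the 1 gene of the list past both thresholds (edgeR adjusted p = 0.0198). In β1-WT-GFP culture C, where Prrx1 was lowest of that group, Pdgfra (16.4 CPM), Col1a1 (5.92), Col3a1 (3.06) and Pdgfrb (2.30) were at their highest. Col1a2 differed from these, at 3.16 CPM in β1-K794Q-GFP culture B and 0 in all β1-WT-GFP cultures. The leukocyte list summed to 71.6, 104 and 31.8 CPM in β1-K794Q-GFP and 77.0, 89.0 and 48.3 CPM in β1-WT-GFP cells, most of it Cd68, with Lyz2 at 0. Csf1r, a receptor of macrophages, was at 10.7 CPM in β1-WT-GFP culture C and at most 0.774 CPM elsewhere. The epithelial list, led by Krt19 with Epcam, Krt5 and Krt18 at 0, summed to at most 1.18 CPM in a culture. The smooth muscle or pericyte list, led by Tagln with Rgs5 and Des at 0, summed to at most 3.62 CPM, in β1-WT-GFP culture C. The part of these lists in the results below was not tested, and in bulk RNA fewer cells of a type and less RNA per cell cannot be told apart.

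Many members had few reads or none in these cells. In 23 of the 79 genes no read was counted in any culture, and another 12 had at most 3 counts in every culture. A further 14 had more reads but did not pass the filter, and 30 were tested: 5 Mmp, 13 Adam, 9 Adamts and 3 Timp genes. Of these 30, Adam21, Adam28, Adam32, Adamts8, Adamts9 and Mmp14 were above the filter level of 0.909 CPM in every culture of 1 group only, so that a count over the tested genes is a description.

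Between the groups, 6 members were higher in β1-K794Q-GFP cells (Adam19, Adam28, Adamts1, Mmp11, Mmp15 and Timp3) and 2 were lower (Adamts8 and Mmp16). These 8 are 26.7% of the 30 tested members. Over all tested genes the share was 5.19%, with 3.48% higher and 1.71% lower. Among the 8, Adam28 reached the filter level in every culture of β1-K794Q-GFP only, and Adamts8 in every culture of β1-WT-GFP only. Each was thus tested through the group where it is higher, and the share is a description. In 13 of the 30 members the 3 cultures of each group did not overlap, against 16.6% of all tested genes. The median log2 fold change of the tested members was 0.39 and that of all tested genes was -0.02, and the median size of the change without its sign was 0.77 in the members and 0.26 in all tested genes. The median SE was also larger in the members, at 0.45 against 0.30. At an adjusted p of at most 0.05, edgeR called 0 members, with 10 at an unadjusted p of at most 0.05, where the shares of all tested genes were 0.181% and 10.2%. DESeq2 called 5 members at that adjusted p, Adam19, Adam28, Adamts8, Mmp16 and Timp3, and 477 of all genes, where edgeR called 21. Without β1-K794Q-GFP culture B and β1-WT-GFP culture C, an alternative chosen after seeing the data, 13 members passed both thresholds, 6 of them among the 8, while the count over all genes went from 603 to 1661.

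**Figure D2:**
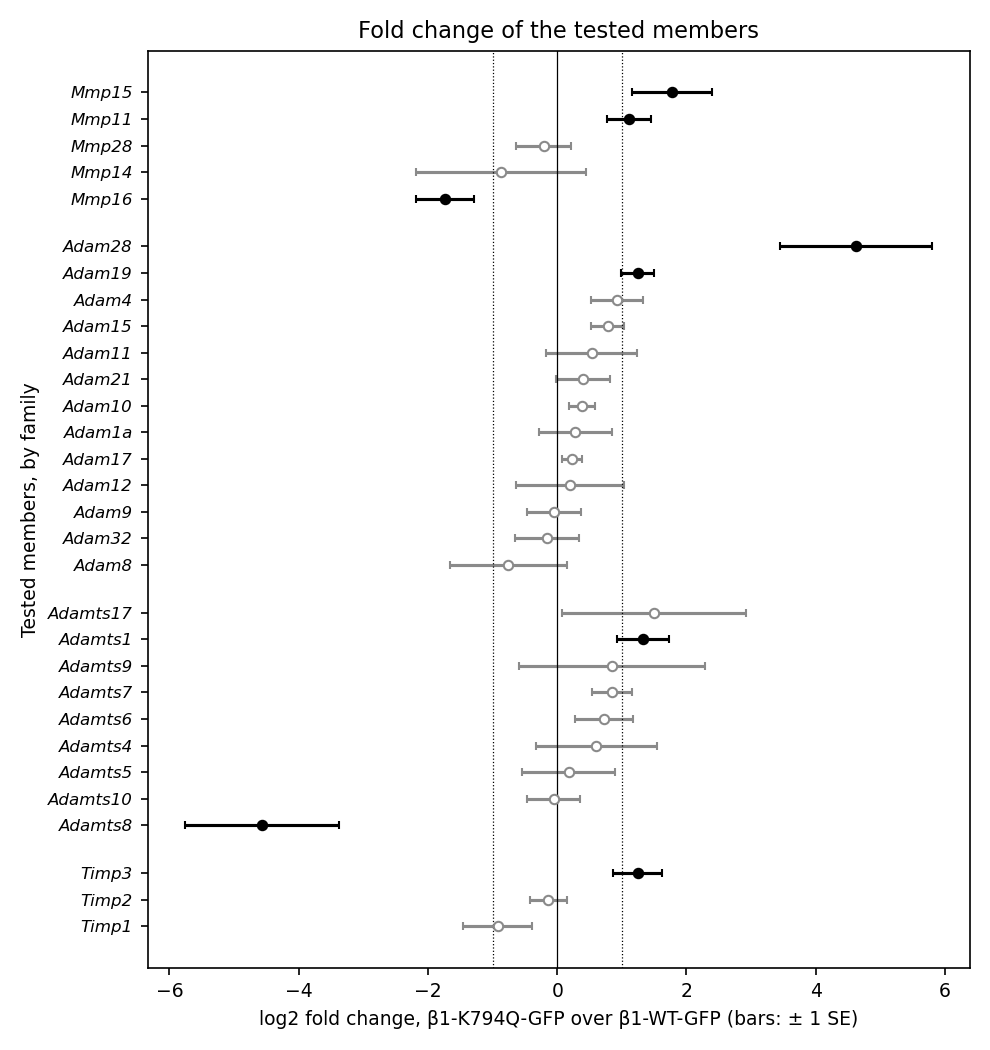
log2 fold change of the 30 tested members, β1-K794Q-GFP over β1-WT-GFP cells, grouped by family, with bars of 1 SE. Filled black points passed both thresholds, open grey points did not, and dotted lines mark a fold of 2. Adam28 at 4.62 and Adamts8 at -4.56 lie farthest from 0 and have bars of over 1.

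Compared per length of exon, Timp2 had the highest mean of the family. It had a mean of 234 CPM per kb over the 6 cultures and Timp3 118, followed by Adam10 with 91.4, Adam15 with 51.7, Adamts1 with 48.2, Adam9 with 46.2 and Adamts4 with 45.5. Mmp14 came next with 17.4, and then Adam17 with 16.0, Adamts8 with 15.5, Adamts5 with 14.6 and Mmp15 with 13.5. The order of neighbours such as Adam15, Adamts1, Adam9 and Adamts4 lies within the spread between cultures, and the means pool groups that differ. Timp3 was above Adam10 in all cultures but β1-WT-GFP culture C, and Mmp14 above Mmp15 in all but β1-K794Q-GFP culture B. The mean of Adamts8 was 1.25 in β1-K794Q-GFP and 29.8 in β1-WT-GFP cells. Summed over each family, the Timp level was 335, 346 and 502 CPM per kb in β1-K794Q-GFP and 304, 339 and 334 in β1-WT-GFP cultures. In the same order the Mmp level was 43.5, 50.6 and 48.8 against 39.3, 39.8 and 54.9 CPM per kb. The Adam level was 233, 303 and 252 against 177, 184 and 232 CPM per kb, without overlap but with 233 and 232 almost equal. For Adamts it was 121, 288 and 113 against 144, 152 and 88.5 CPM per kb, with overlap. The ratio of the Timp sum to the Mmp sum was 7.71, 6.83 and 10.3 in β1-K794Q-GFP and 7.72, 8.50 and 6.08 in β1-WT-GFP cultures, so that the groups overlapped.

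**Figure D3:**
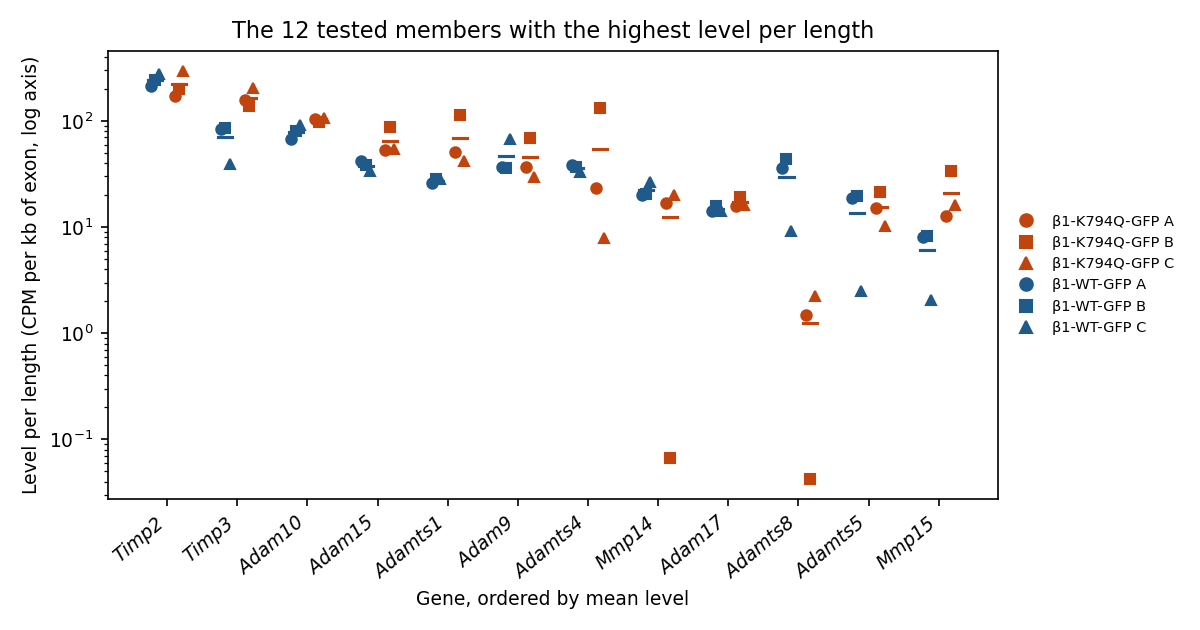
Level of the 12 tested members with the highest mean level per length, in CPM per kb of exon on a log axis, with a point for each culture and a line at the mean of each group. Timp2 and Timp3 have the highest means over 6 cultures, and the single points of Mmp14 and Adamts8 far below the others are β1-K794Q-GFP culture B.

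Of the inhibitors, Timp3 passed both thresholds. Timp3, which binds to the matrix and also blocks ADAM17 and several ADAMTS enzymes, was at 1284, 1128 and 1653 CPM in β1-K794Q-GFP and at 689, 706 and 319.6 CPM in β1-WT-GFP cells. All 3 β1-K794Q-GFP cultures lay above all β1-WT-GFP cultures, and the means of 1355 ± 269.7 and 572 ± 218 CPM (SD, n = 3) gave a log2 fold change of 1.25 with an SE of 0.38 (edgeR adjusted p = 0.305). The lowest value was that of β1-WT-GFP culture C, and without it the log2 fold change was 0.97, under the threshold of a fold of 2. With the level of neighbouring genes in the offset it was 0.54 and did not pass. Timp2, which besides its inhibition takes part in the activation of the gelatinase Mmp2 at the cell surface, had 669, 786 and 1149.6 CPM in β1-K794Q-GFP and 833, 956 and 1078 CPM in β1-WT-GFP cells. These groups overlapped, and the log2 fold change was -0.14 with an SE of 0.29 (edgeR adjusted p = 0.929). The ratio of Timp3 to Timp2 per length was 0.918, 0.686 and 0.688 in β1-K794Q-GFP and 0.396, 0.353 and 0.142 in β1-WT-GFP cultures, again with no overlap. Timp1, a soluble inhibitor, was low at 5.10, 5.13 and 3.61 CPM in β1-K794Q-GFP and 4.64, 5.70 and 15.8 CPM in β1-WT-GFP cells, with culture C of the latter alone above 6. Its log2 fold change was -0.92 with an SE of 0.53 (edgeR adjusted p = 0.664), and without that culture it was -0.15. Timp4 had 0 counts in all 6 cultures.

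**Figure D4:**
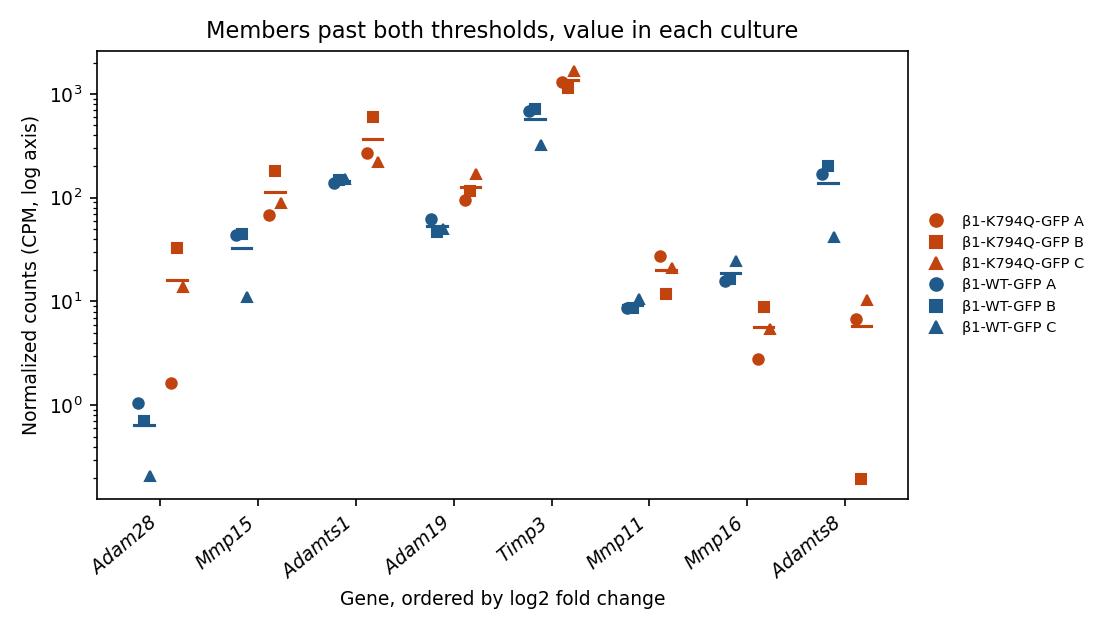
Normalized counts (CPM, log axis) of the 8 members past both thresholds, with a point for each culture and a line at the mean of each group. Orange β1-K794Q-GFP points lie above all blue β1-WT-GFP points in 6 genes and below them in Mmp16 and Adamts8.

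The 3 expressed transmembrane matrix metalloproteases differed in direction. Mmp15 was at 68.5, 181 and 88.0 CPM in β1-K794Q-GFP and at 43.4, 44.3 and 11.1 CPM in β1-WT-GFP cells. The groups did not overlap, with culture B highest and β1-WT-GFP culture C lowest, and the log2 fold change was 1.78 with an SE of 0.62 (edgeR adjusted p = 0.380). Without β1-K794Q-GFP culture B it was 1.26 and no longer passed the p threshold, and without both doubtful cultures it was 0.85. Mmp16 had 2.79, 8.78 and 5.42 CPM in β1-K794Q-GFP and 15.7, 16.6 and 24.3 CPM in β1-WT-GFP cells, lower in all 3 cultures. Its log2 fold change was -1.74 with an SE of 0.45 (edgeR adjusted p = 0.239), and it passed both thresholds without any 1 of the 6 cultures. Mmp14, the main collagen-cutting enzyme of the cell surface and an activator of the Mmp2 precursor, was at 99.7, 0.395 and 121 CPM in β1-K794Q-GFP and at 119, 123 and 159 CPM in β1-WT-GFP cells. Only 4 reads were counted in β1-K794Q-GFP culture B, while the other 5 cultures were within a narrow range. The fitted log2 fold change of -0.86 with an SE of 1.32 (edgeR adjusted p = 0.903) rests on that culture, and without it the value was -0.28.

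Secreted matrix metalloproteases were scarce. Mmp11, which is activated inside the cell by furin, was at 27.3, 11.8 and 21.2 CPM in β1-K794Q-GFP and at 8.66, 8.70 and 10.5 CPM in β1-WT-GFP cells. All β1-K794Q-GFP values were higher, and the log2 fold change was 1.11 with an SE of 0.34 (edgeR adjusted p = 0.312). It fell to 0.83 without β1-K794Q-GFP culture A, and the p threshold was also missed without β1-WT-GFP culture A or B, at 1.06 and 1.07. With the level of neighbouring genes in the offset the value was 0.58, which did not pass. Mmp28 lay between 8.95 and 26.3 CPM with overlapping groups. The gelatinase Mmp2 had 0, 113 and 0 counts in β1-K794Q-GFP and 4, 1 and 675 counts in β1-WT-GFP cells. Nearly all of its reads thus came from a single culture of each group. In β1-K794Q-GFP culture B the reads of Mmp2 appeared where those of Mmp14 were nearly absent, while in β1-WT-GFP culture C both were present. Mmp9, the other gelatinase, had at most 4 counts in any culture.

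The 10 genes of the collagenase and stromelysin cluster on chromosome 9 (chr9:7272514-7699585, GRCm38) were all under the filter. Mmp13 reached 21 counts in β1-WT-GFP culture C, the highest count of the cluster, and Mmp3 had 0, 9 and 2 counts in β1-K794Q-GFP and 2, 0 and 9 counts in β1-WT-GFP cells. Mmp10 had 7 counts in β1-WT-GFP culture C and 0 elsewhere. Mmp20 and Mmp7 had no read in any culture. Many of these genes are known to respond to growth factors and cytokines through AP-1 sites, and their promoters differ in composition from those of the expressed members. RefSeq promoters (GRCm38.p6, the 250 bases before a start) were matched by symbol for 49 of the 79 members. The AP-1 letters TGACTCA, on either strand, occurred in 7 of the 12 promoters of the 10 cluster genes, and the TATA letters TATAAA in 7, against 4.46% and 12.4% of all 32851 promoters. The single AP-1 match of Mmp12 is in a second promoter that lies within the gene. Among the 19 promoters of tested members each motif occurred in 1, and the GC-box letters GGGCGG occurred in 13, against 0 in the cluster and 32.7% of all promoters. The median GC content was 40.2% in the promoters of the cluster, 62.0% in those of tested members and 52.4% over all promoters. A match of letters is a description and not a site. Of the members that differed, Adam28, Adamts8 and Mmp16 were not among the matched. To show the contrast, 3 cluster promoters are printed with 4 of higher members, 5′ to 3′ on the strand of the gene, with AP-1 and TATA letters in capitals and bases within the GENCODE span of the gene left off. The cluster genes are Mmp13 (chr9:7272264-7272513, + strand), Mmp3 (chr9:7445572-7445821, + strand) and Mmp10 (chr9:7502092-7502341, + strand). In them the AP-1 letters begin 35, 46 and 63 bases before the start, and the TATA letters 16, 7 and 29 bases before it. The others are Adam19 (chr11:46055734-46055983, + strand), Adamts1 (chr16:85803114-85803363, - strand), Mmp15 (chr8:95352046-95352267, + strand) and Timp3 (chr10:86300162-86300371, + strand). In this promoter of Adam19, 1 of several in the reference, the AP-1 letters begin 131 bases before the start, and in Adamts1 the TATA letters begin 32 bases before it.
Mmp13: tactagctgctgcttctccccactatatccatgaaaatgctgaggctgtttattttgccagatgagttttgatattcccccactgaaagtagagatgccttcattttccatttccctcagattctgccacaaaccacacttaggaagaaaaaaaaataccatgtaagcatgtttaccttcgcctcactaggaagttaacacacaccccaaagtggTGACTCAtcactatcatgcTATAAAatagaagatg
Mmp3: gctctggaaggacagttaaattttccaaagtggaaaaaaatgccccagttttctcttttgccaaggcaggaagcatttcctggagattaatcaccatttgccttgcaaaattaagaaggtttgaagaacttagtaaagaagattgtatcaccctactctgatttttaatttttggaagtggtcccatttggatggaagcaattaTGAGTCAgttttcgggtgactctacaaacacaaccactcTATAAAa
Mmp10: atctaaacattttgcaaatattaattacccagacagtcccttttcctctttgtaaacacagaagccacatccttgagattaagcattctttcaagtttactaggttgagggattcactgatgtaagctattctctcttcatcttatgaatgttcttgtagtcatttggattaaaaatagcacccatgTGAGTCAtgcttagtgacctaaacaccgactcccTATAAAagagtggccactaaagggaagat
Adam19: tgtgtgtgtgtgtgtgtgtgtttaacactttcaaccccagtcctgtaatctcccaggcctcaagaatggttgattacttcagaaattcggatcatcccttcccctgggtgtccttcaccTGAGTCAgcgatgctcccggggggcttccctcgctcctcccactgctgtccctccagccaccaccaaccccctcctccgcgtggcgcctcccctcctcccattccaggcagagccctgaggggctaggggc
Adamts1: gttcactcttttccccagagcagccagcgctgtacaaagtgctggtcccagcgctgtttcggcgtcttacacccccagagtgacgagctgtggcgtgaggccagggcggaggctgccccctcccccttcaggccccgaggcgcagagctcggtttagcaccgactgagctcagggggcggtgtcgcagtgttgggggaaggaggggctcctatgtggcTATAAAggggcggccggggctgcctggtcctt
Mmp15: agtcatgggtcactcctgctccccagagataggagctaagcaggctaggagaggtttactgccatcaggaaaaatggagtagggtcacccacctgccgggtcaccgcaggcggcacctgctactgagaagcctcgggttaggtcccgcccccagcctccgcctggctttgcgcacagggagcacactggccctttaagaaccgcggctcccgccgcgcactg
Timp3: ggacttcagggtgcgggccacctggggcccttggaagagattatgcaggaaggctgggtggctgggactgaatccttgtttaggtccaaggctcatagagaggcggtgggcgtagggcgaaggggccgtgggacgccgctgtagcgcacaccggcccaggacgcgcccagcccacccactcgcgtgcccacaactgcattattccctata

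Of the 13 tested Adam genes, 2 passed both thresholds, both upwards, with 3 at an unadjusted p of at most 0.05, where the shares of all tested genes were 5.19% and 10.2%. Adam19 (chr11:46055992-46147343), a shedding enzyme known for the release of neuregulin, was at 95.0, 115 and 168 CPM in β1-K794Q-GFP and at 62.3, 46.5 and 50.3 CPM in β1-WT-GFP cells. The means were 126 ± 37.5 and 53.0 ± 8.25 CPM (SD, n = 3) without overlap, and the log2 fold change of 1.25 with an SE of 0.26 had the lowest adjusted p of the members (edgeR adjusted p = 0.153). When β1-K794Q-GFP culture C was left out, this dropped to 0.98, just under a fold of 2. Adam28 was at 1.64, 32.9 and 13.8 CPM in β1-K794Q-GFP and at 1.05, 0.700 and 0.209 CPM in β1-WT-GFP cells. This gave a log2 fold change of 4.62 with an SE of 1.18 (edgeR adjusted p = 0.228), yet β1-K794Q-GFP culture A was close to β1-WT-GFP culture A, and the high values were those of cultures B and C. It passed both thresholds without any 1 of the cultures, with a log2 fold change between 3.57 and 5.16. It reached the filter level in every culture only of β1-K794Q-GFP, the group where it is higher.

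The main sheddases did not pass both thresholds. Adam10, which cuts Notch receptors and cadherins, was at 516, 485 and 522 CPM in β1-K794Q-GFP and at 333, 393 and 447 CPM in β1-WT-GFP cells, which gave a log2 fold change of 0.38 with an SE of 0.20 (edgeR adjusted p = 0.620). Adam17, which releases tumour necrosis factor and ligands of the EGF receptor, was at 114, 139 and 117 CPM and at 102, 113 and 101 CPM, a log2 fold change of 0.23 with an SE of 0.16 (edgeR adjusted p = 0.739). Adam15, an ADAM of endothelial junctions, was at 329, 536 and 338 CPM in β1-K794Q-GFP and at 256, 238 and 207 CPM in β1-WT-GFP cells, with a log2 fold change of 0.78 and an SE of 0.26 (edgeR adjusted p = 0.357). In these 3 genes the β1-K794Q-GFP cultures were all above the β1-WT-GFP cultures, and the fitted fold changes were under 2. The groups did not overlap in 16.6% of all tested genes either, and in Adam17 the nearest cultures were at 114 and 113 CPM. Adam9 overlapped, at 150.2, 287 and 123 CPM in β1-K794Q-GFP and 151, 148 and 280.1 CPM in β1-WT-GFP cells, with its high values in the same 2 cultures that stood apart elsewhere. Adam12 was highest in culture C of both groups, at 118 and 90.3 CPM, and overlapped. Adam8 was at 33.1 CPM in β1-WT-GFP culture C and between 3.20 and 9.98 CPM in the other cultures, and without that culture it passed both thresholds as higher, at 1.10. The other tested Adam genes, Adam11, Adam1a, Adam21, Adam32 and Adam4, were all at or under 8.28 CPM. Of the 20 untested Adam genes, 15 had no read in any culture, and the single one above 3 counts was Adam5, with 7 counts in β1-WT-GFP culture C.

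Adamts8, of the subgroup that cuts large proteoglycans, was lower in β1-K794Q-GFP cells. The gene (chr9:30942562-30963838) was at 6.84, 0.197 and 10.3 CPM in β1-K794Q-GFP and at 167, 203 and 42.2 CPM in β1-WT-GFP cells. The groups did not overlap, with means of 5.78 ± 5.14 and 138 ± 84.5 CPM (SD, n = 3). The log2 fold change was -4.56 with an SE of 1.20 (edgeR adjusted p = 0.241). It passed both thresholds without any 1 of the cultures, with a log2 fold change between -5.28 and -3.99. It reached the filter level in every culture only of β1-WT-GFP, the group where it is higher. Adamts15 (chr9:30899155-30922452), a gene of the same subgroup that lies next to Adamts8, had 1, 0 and 1 counts in β1-K794Q-GFP and 44, 14 and 7 counts in β1-WT-GFP cells. It did not pass the filter, and its pooled level was 29.2-fold higher in β1-WT-GFP cells, with a 95% counting interval from 7.76 to 246. Of its 65 β1-WT-GFP counts, 44 came from culture A, and a ratio without that culture was not computed. Snx19, Zbtb44, Aplp2, Prdm10 and Nfrkb, the other genes expressed within 500 kb of the pair, were not differentially expressed, with log2 fold changes between -0.20 and 0.62. Adamts1 (chr16:85793827-85803113), which inhibits vessel growth and cuts versican, was at 271, 604 and 221 CPM in β1-K794Q-GFP and at 137, 149 and 150.1 CPM in β1-WT-GFP cells. All β1-K794Q-GFP cultures were higher, with a log2 fold change of 1.33 and an SE of 0.40 (edgeR adjusted p = 0.305), and culture B was the highest. Without culture B the log2 fold change was 0.76, under a fold of 2, and without β1-WT-GFP culture A the p threshold was missed at 1.28. Adamts5 (chr16:85856173-85901828), the neighbour of Adamts1 and an aggrecan-cutting enzyme, was at 163, 229.9 and 109 CPM in β1-K794Q-GFP and at 203, 214 and 27.0 CPM in β1-WT-GFP cells. Its groups overlapped, with a log2 fold change of 0.18 and an SE of 0.72 (edgeR adjusted p = 0.970), and the sign turned without either β1-K794Q-GFP culture B or β1-WT-GFP culture C, at -0.11 and -0.31.

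Adamts4, Adamts9 and Adamts17 differed widely between cultures of a group. Adamts4 was at 112, 642 and 37.9 CPM in β1-K794Q-GFP and at 183, 177 and 160.0 CPM in β1-WT-GFP cells. The positive log2 fold change of 0.61 with an SE of 0.93 (edgeR adjusted p = 0.903) rests on β1-K794Q-GFP culture B, and without that culture it was -1.20, and without both cultures that stood apart it was -1.24 and passed both thresholds as lower. Adamts9 was at 159.6, 0.691 and 348 CPM in β1-K794Q-GFP and at 114, 111 and 57.6 CPM in β1-WT-GFP cells, with 7 reads in culture B. Like Mmp14, it was nearly absent from that culture and present in the other 5. Its log2 fold change was 0.85 with an SE of 1.44 (edgeR adjusted p = 0.913), and without culture B it was 1.44 and passed both thresholds as higher. With 1 culture left out it ranged from -0.23 to 1.44, so that the sign also turned. Without both cultures that stood apart it was 1.19 and passed as higher. Adamts17 was at 7.22, 1.18 and 67.2 CPM and at 15.0, 10.3 and 1.39 CPM, also with no order by group. Adamts7 was at 44.7, 70.2 and 34.1 CPM in β1-K794Q-GFP and at 25.5, 24.1 and 33.1 CPM in β1-WT-GFP cells, and its log2 fold change of 0.85 with an SE of 0.31 (edgeR adjusted p = 0.406) was under a fold of 2. Its groups did not overlap, and it passed both thresholds when C of either group was left out. With 1 culture left out its log2 fold change ranged from 0.52 to 1.06. Without both cultures that stood apart it was 0.68 and did not pass. Adamts6 and Adamts10 overlapped between the groups.

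Of the 14 members under the filter with over 3 counts, 4 were chosen after their values were seen. Adamts12, related to Adamts7, had 89, 8 and 109 counts in β1-K794Q-GFP and 3, 1 and 1 counts in β1-WT-GFP cells. The pooled level was 45.9-fold higher in β1-K794Q-GFP cells, with a 95% counting interval from 19.3 to 143, and culture B was the lowest of its group. Mmp19 had 21, 21 and 7 counts in β1-K794Q-GFP and 4, 4 and 3 counts in β1-WT-GFP cells, a pooled ratio of 4.96 with an interval from 2.54 to 10.6. Mmp17 had 21, 4 and 25 counts in β1-K794Q-GFP and 5, 1 and 11 counts in β1-WT-GFP cells, a pooled ratio of 3.27 with an interval from 1.86 to 6.06. These intervals cover counting error and not the spread between cultures, which overlapped in Mmp17. With no filter, edgeR placed Adamts12, Mmp19 and Adamts15 past both thresholds, for 11 members in all, and 916 genes in all passed, against 603 with the filter. The procollagen processing enzyme Adamts2 had 26 counts in β1-WT-GFP culture C and at most 2 in any other culture. Adamts13, which cuts von Willebrand factor, had no read in any culture.

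Timp3 and Mmp11 both lie on chromosome 10, where neighbouring genes were also higher. The median of the 24 nearest neighbours of Timp3 (chr10:86300372-86349506), on the log2 scale with the β1-WT-GFP mean at 0, was 0.70, 0.69 and 0.64 in β1-K794Q-GFP and -0.11, 0.04 and 0.02 in β1-WT-GFP cultures. Around Mmp11 (chr10:75923222-75936496) the same median was 0.58, 0.46 and 0.50 in β1-K794Q-GFP and -0.01, -0.13 and 0.10 in β1-WT-GFP cultures. With this regional level taken into the offset of the fit, the log2 fold change of Timp3 was 0.54 and that of Mmp11 was 0.58, and neither passed both thresholds. The other 6 differentially expressed members stayed past them, and Adam4 and Adamts7 were added. Mmp19 (chr10:128790910-128800824), which was not tested, lies near Cd63, around which the same median was 1.73, 0.64 and 1.56 in β1-K794Q-GFP and within 0.05 of 0 in β1-WT-GFP cultures. With the offset Cd63, a receptor of Timp1, turned from 0.85 to -0.47, and the ratio of Mmp19 is given without such a correction. Around Adamts4 on chromosome 1 the neighbours were lower, at -0.61, -0.61 and -0.68 in β1-K794Q-GFP cultures, and with the offset its log2 fold change was 1.20 and it did not pass. Timp3 also lies within Syn3, a gene of the other strand with 21, 19 and 36 counts in β1-K794Q-GFP and 9, 2 and 8 counts in β1-WT-GFP cells. Use of strand in the counting is not given in the sources used here, so that reads of this pair cannot be told apart where their exons meet.

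Of 68 related genes that are not members, 67 were in the table, 41 were tested, and 4 passed both thresholds, Plat and Adamtsl1 upwards and Tll1 and Vcan downwards. This is 9.76% of those tested, beside the 5.19% of all genes. Their median log2 fold change was 0.21. The astacin protease Tll1, which processes procollagens and matrix proteins, was at 50.9, 52.5 and 34.9 CPM in β1-K794Q-GFP and at 340.0, 396 and 115 CPM in β1-WT-GFP cells. No culture overlapped, and the log2 fold change was -2.62 with an SE of 0.49 (edgeR adjusted p = 0.120). Versican (Vcan), the proteoglycan cut by Adamts1, Adamts4, Adamts5, Adamts8, Adamts9 and Adamts15, was at 1.06, 0.0987 and 0.860 CPM in β1-K794Q-GFP and at 35.2, 32.5 and 3.48 CPM in β1-WT-GFP cells. It was lower in all 3 cultures, with a log2 fold change of -5.11 and an SE of 1.12 (edgeR adjusted p = 0.168). Tll1, Vcan, Adamts8 and Adamts15 each had their lowest β1-WT-GFP value in culture C. The other 3 proteoglycan substrates, Acan, Bcan and Ncan, did not pass the filter.

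Plat, the tissue plasminogen activator, was at 3.47, 25.4 and 4.21 CPM in β1-K794Q-GFP and at 2.01, 2.60 and 2.16 CPM in β1-WT-GFP cells. Adamtsl1, a secreted protein with ADAMTS-like modules and no protease, was at 53.1, 470.1 and 31.6 CPM in β1-K794Q-GFP and at 27.7, 23.1 and 4.04 CPM in β1-WT-GFP cells. Both were higher in β1-K794Q-GFP cells, with log2 fold changes of 2.28 (SE 0.84, edgeR adjusted p = 0.416) and 3.34 (SE 1.25, edgeR adjusted p = 0.425), and in both culture B was far above the other cultures. Without culture B the log2 fold changes were 0.77 and 1.23, and neither passed. Both also missed the thresholds without any 1 of the β1-WT-GFP cultures, and Plat with the block. The count of related genes past both thresholds was 2 when A or B of β1-WT-GFP was left out and 9 when C was, beside 528, 501 and 992 of all genes. With C of β1-WT-GFP and B of β1-K794Q-GFP both left out it was 12, beside 1661 of all genes, among them the metalloprotease inhibitor Reck. Of the plasminogen system, the receptor Plaur was at 304 CPM in β1-WT-GFP culture C and between 10.9 and 70.7 CPM elsewhere. Bsg, an inducer of metalloproteases, was at 285, 353 and 233 CPM in β1-K794Q-GFP and at 139, 151 and 191 CPM in β1-WT-GFP cells, which gave a log2 fold change of 0.86 with an SE of 0.23 (edgeR adjusted p = 0.265) that did not reach a fold of 2. Leaving out C of β1-WT-GFP brought it to 1.01, past both thresholds. Bsg also lies on chromosome 10, and with the level of its neighbours in the offset the value was 0.29. None of the 7 tested partners of Adam10 and Adam17, the 3 proprotein convertases, the 5 cathepsins and cystatins or the 7 shed ligands and surface proteins passed both thresholds in edgeR with all 6 cultures and no block, with 0 of these at an unadjusted p of at most 0.05. The shares of all tested genes were 5.19% and 10.2%, so that few would pass in lists this short. Pcsk6 passed with DESeq2 and with the culture letters as a block, and Pcsk6, Hbegf, Sdc1 and Sdc4 passed as higher without β1-WT-GFP culture C. With both cultures that stood apart left out, these 4 passed as higher and Rhbdf2, a partner of Adam17, as lower.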

How the data were processed

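RNA of 6 cultures was sequenced after ribosomal RNA depletion. The authors deposited raw counts of reads per mouse gene symbol, and the submitters' processing notes name bcl2fastq 2.20.0, STAR 2.7.4a, HTSeq 0.9.1, edgeR 3.38.4 and the build mm10. The annotation and the use of strand are not given in the sources used here. The count columns were matched to cultures by name and analysed in R 4.3.3 with edgeR 4.0.16: filterByExpr, TMM normalization, and the quasi-likelihood F-test (glmQLFit, glmQLFTest), which was first tested on simulated counts. Each SE was computed as |log2 fold change|/√F.

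Levels per length use the summed exons of GENCODE M21 (GRCm38), matched by symbol for 21777 genes and by synonym for 1249. A count of 0 was read against a floor of 3 counts. The members and lists were chosen with earlier results of these data known. Named genes are the members past both thresholds, the 4 Timp genes, the 12 tested members with the highest level per length, members at a fold of 2 whose groups did not overlap, and related genes past both thresholds. The others named are described by their values. Alternatives were no filter, at least 10 counts in every culture, RLE factors, DESeq2 1.42.0, culture letters as a block, each culture left out, and the median level of 24 neighbouring genes in the offset. Leaving out β1-K794Q-GFP culture B and β1-WT-GFP culture C together was added after seeing the data. Pooled low counts were compared by an exact (Clopper-Pearson) interval. Python 3.11.15 was used for summaries and plots.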

Additional observations from a re-analysis of the deposited data

How the results depend on the processing

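The 8 members passed both thresholds with RLE normalization, DESeq2 and the block. With at least 10 counts in every culture 6 of them passed, and Adam28 and Adamts8 were not tested. With the regional offset 6 of the 8 passed, while Timp3 (0.54) and Mmp11 (0.58) did not. The count was between 8 and 12 with 1 culture left out. Without β1-K794Q-GFP culture B and β1-WT-GFP culture C it was 13, the related genes were 12 and all genes were 1661. All genes past both thresholds were 916 with no filter on low counts and between 501 and 992 with 1 culture left out, and the related genes were between 2 and 9. More genes were tested without a filter, and the cause of these differences was not tested. Culture letters as a replicate block gave 571 genes, 481 of them among the 603. The same letters correlated at 0.109 (A), 0.055 (B) and 0.102 (C) in their deviations from the group means, and different letters between -0.162 and 0.113. β1-K794Q-GFP culture A correlated best with β1-WT-GFP culture B (0.113), and B and C with their own letter. These weak correlations cannot decide whether the letters pair the cultures.

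Over 17 named members, 194 of 218 alternative values kept their direction and the joint call by both thresholds, though some crossed a single threshold, 12 were no longer past both, and 12 had the other sign, all of genes that had not passed both. Tested members outside these 17 were not tallied. Among them the sign also turned with 1 culture left out, as in Adam8 (-1.22 to 1.10), Adam12 (-0.86 to 0.93), Adamts9 (-0.23 to 1.44) and Adamts17 (-1.08 to 2.11). With 1 culture left out, Adam9 ranged from -0.50 to 0.33, positive at 0.08 and 0.18 without A or C of β1-K794Q-GFP and at 0.33 without C of β1-WT-GFP. Adamts4 ranged from -1.20 (without B of β1-K794Q-GFP) to 1.12 and was at -0.36 with the block and 1.20 with the regional offset. Adamts5 ranged from -0.31 (without C of β1-WT-GFP) to 0.54 and was at -0.11 without B of β1-K794Q-GFP. Timp2 ranged from -0.39 to 0.0181 (without A of β1-K794Q-GFP) and was at 0.0316 with the regional offset. Without both cultures Adamts4 was at -1.24, past both thresholds as lower, Adamts5 at -0.60 and Timp2 at 0.0394. The depth limits Adam28, Adamts8 and the untested members, which had cultures near the floor of 3 counts.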

Other observations

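Other genes beside the proteases also stood at 0 or near it in some cultures. Cyyr1, a tested neighbour of Adamts1 and Adamts5, was at 0, 4.44 and 0 CPM in β1-K794Q-GFP and at 14.4, 15.4 and 20.7 CPM in β1-WT-GFP cells, with no overlap and without passing both thresholds. Cldn5, a protein of endothelial tight junctions, was at 17.5, 0 and 24.3 CPM in β1-K794Q-GFP and at 267, 252 and 4.74 CPM in β1-WT-GFP cells. Its low β1-WT-GFP value is that of culture C, and it did not pass both thresholds either.

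Among the proprotein convertases, which cut the inactive precursors of many metalloproteases, Furin was at 270.4, 271 and 165 CPM in β1-K794Q-GFP and 262, 274 and 373 CPM in β1-WT-GFP cells, and Pcsk7 lay between 56.7 and 65.7 CPM in all cultures. Pcsk6 was at 24.7, 70.6 and 33.2 CPM in β1-K794Q-GFP and at 2.62, 2.80 and 26.6 CPM in β1-WT-GFP cells, where culture C overlapped with the other group. The ligand Hbegf, shed by ADAM proteases, was highest in that same culture, at 88.1 CPM, and between 7.96 and 28.9 CPM elsewhere. The cause of these values was not tested.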
